A study of Homo sapiens with 4 samples.

Results

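Complexes II to V carry electrons from succinate and ubiquinol to oxygen and turn the proton gradient into ATP. Complex II (succinate dehydrogenase) reduces ubiquinone, complex III passes electrons from ubiquinol to cytochrome c, and complex IV (cytochrome c oxidase) passes them to oxygen. Complexes III and IV pump protons out of the mitochondrial matrix, and complex V (ATP synthase) makes ATP as they flow back. Most subunits are encoded in the nucleus and a few core subunits in mitochondrial DNA. Many of the nuclear genes are known targets of the transcription factors NRF1, GABPA and YY1.

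The genes were chosen by a rule on symbols that uses no measured value, though earlier results of these data were known. They are SDHA, SDHB, SDHC, SDHD, CYC1, CYCS and the genes whose symbol starts with UQCR, ATP5, COX4, COX5, COX6, COX7 or COX8. On the array, 93 of 54675 probe sets, each a group of short oligonucleotides for a transcript, met this rule with a single gene symbol. They stood for 46 of the 19775 genes read. Complex II had 3 genes, complex III 7, complex IV 17 and complex V 18, and CYCS encodes cytochrome c. In all, 2 probe sets of pseudogenes were left out. SDHB and UQCRFS1 were not analysed here. The probe set of UQCRH also names UQCRHL and was not counted. ATP5MF was read only from a dim probe set, because its bright one also names another gene.

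The RNA came from CL1-0 and CL1-5, established lines from human lung adenocarcinoma. CL1-5 was derived from CL1-0 by selection for invasiveness. AK4 is an adenylate kinase of the mitochondrial matrix. The 4 groups were CL1-0 labelled as carrying an AK4 vector, CL1-0 with a control vector, CL1-5 with an shRNA against AK4, and CL1-5 with a non-silencing shRNA. All were stable transductants selected with puromycin. Each group was 1 array, so every difference below stands without a replicate check, an error or a p-value.

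Values are scaled signals, that is, intensities in arbitrary units after each array was brought to the same trimmed mean. Signals under a floor of 6.94 were set to it, and a gene counted as measured in a comparison if at least 1 of its 2 arrays lay above the floor. Of the 46 genes, 41 lay above the floor on all 4 arrays and 3 on none. These 3 were COX7A1, known from heart and skeletal muscle, and COX7B2 and COX8C, known from testis. Probe sets bind their targets unequally, so signals of different genes are not ranked against each other.

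The 4 AK4 probe sets were read beside the labels. With AK4 shRNA their log2 ratios to the non-silencing array lay between -0.88 and -1.25. On the array labelled AK4 vector they lay between -0.050 and -0.25 against the control vector, so AK4 signal was not higher there. Whether these probe sets can read the AK4 transcript of the vector was not tested, so they could not check that label. Directions drawn from that array rest on its label. The cells are labelled as type II alveolar. Of 8 markers of that type, 6 passed the floor with the AK4 vector label, 7 with the control vector and 5 on each CL1-5 array. SLC34A2 lay under it on all 4. Among all probe sets the share past the floor was 57.6% with the AK4 vector label and 56.6% with the control vector. It was 62.4% with AK4 shRNA and 63.4% with the non-silencing shRNA. With such shares, counts of 8 markers could not check the cell type label. The epithelial markers EPCAM and CDH1 passed the floor only with the AK4 vector label. As a sign of RNA integrity, beta-actin gave 6.54 times as much signal at its 3′ end as at its 5′ end on the array labelled AK4 vector and 6.04 times on the control vector array. The same quotient was 1.61 with AK4 shRNA and 1.34 with the non-silencing shRNA. For GAPDH it was 1.54, 1.25, 1.07 and 1.04 on the 4 arrays in the same order.

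In CL1-0 the genes of complexes II to V stood slightly higher on the array labelled AK4 vector than on the control vector array. Of 42 measured genes, 32 had a log2 ratio above 0, or 76.2%, beside 56.1% of all measured genes. The share was 87.5% for complex I subunits and 87.0% for cytosolic ribosomal proteins. The median log2 ratio of the members was 0.24, against 0.047 for all 14677 measured genes. Few differences were large. A 1.5-fold higher signal was reached by 4 of 42, or 9.52%, below the 12.6% of all genes, and a 1.5-fold lower one by 0, beside 6.53%. The higher count was 2 under quantile normalization, beside 9.94% of all genes, and 1 (ATP5IF1) with a common median, beside 10.4%. Without probe sets of suffix _x_at or _s_at 6 members were higher, beside 13.3%, and 3 lower, beside 6.19%. A 2-fold higher signal was reached by 1 gene, ATP5IF1, beside 3.22% of all genes, and a 2-fold lower one by 0, beside 1.17%. Among genes with a mean log2 level of at least 10, the median was 0.23 for 31 members and 0.011 for 544 other genes. Probe sets for the same gene scattered with a pooled SD of 0.41 on the log2 ratio, more than most members differed between the arrays.

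**Figure D1:**
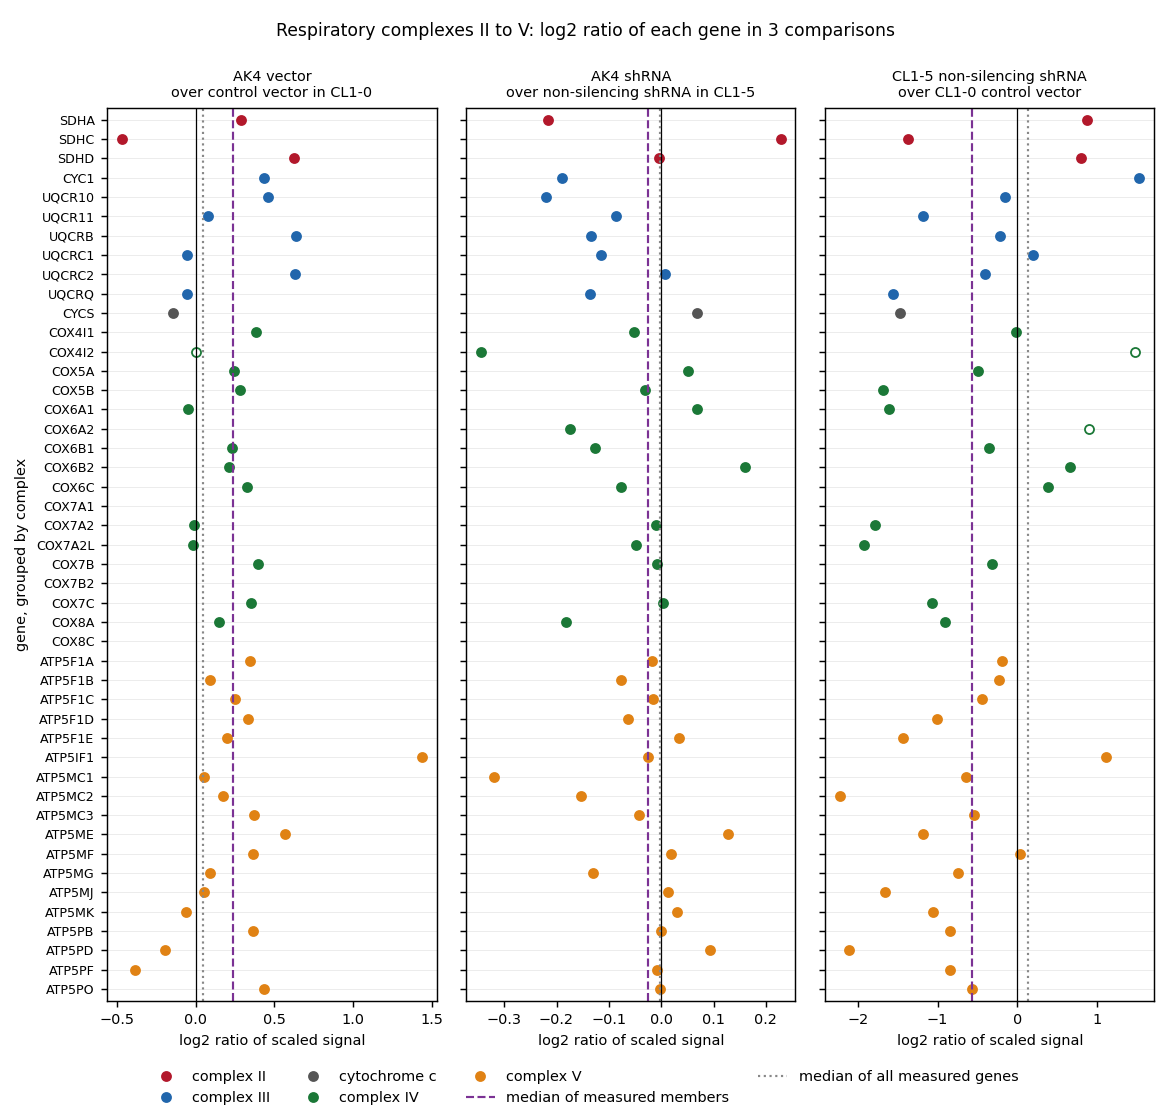
Log2 ratio of scaled signal (x axis) for each of the 46 genes (y axis, grouped and coloured by complex) in the 3 comparisons, with 1 array per group and so no error bars. Dashed lines mark the median of the measured members (0.24, -0.025 and -0.56) and dotted lines that of all measured genes (0.047, -0.0014 and 0.13), open circles are genes with 1 array at the floor, and genes with no point were not measured.

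Complex II oxidises succinate in SDHA, and SDHC and SDHD anchor it in the inner membrane. SDHD had signals of 489.5 with the AK4 vector label and 317 with the control vector, a log2 ratio of 0.63. SDHA had 405 with the AK4 vector label and 331 with the control vector, a log2 ratio of 0.29, from its only probe set. SDHC went the other way, with 489.7 on the array labelled AK4 vector and 677 on the control vector array. Its log2 ratio of -0.47 was the lowest of the 42 measured members.

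SDHC was read by 7 probe sets. Its 4 bright ones carry the suffix _x_at or _s_at, which marks probes that can bind related transcripts. Their log2 ratios were -0.79, -0.68, -0.47 and -0.031 in CL1-0. In CL1-5 the same 4, in the same order, were at 0.16, 0.31, 0.23 and 0.30 with AK4 shRNA. All 4 were thus below 0 on the array labelled AK4 vector, though 1 only at -0.031, and above 0 with AK4 shRNA. Of the dim probe sets, 1 was at 0.11 in CL1-0 and -0.12 in CL1-5, 1 was at 0.85 and 0.23, and the last lay under the floor on all 4 arrays. The dim probe sets did not share the direction of the bright ones in CL1-0.

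In complex III, UQCRC1 and UQCRC2 are the core proteins, CYC1 is cytochrome c1, and UQCRB, UQCRQ, UQCR10 and UQCR11 are small subunits. UQCRB had 3395 with the AK4 vector label and 2186 with the control vector, a log2 ratio of 0.64. UQCRC2 had 1614 with the AK4 vector label and 1041 with the control vector, a log2 ratio of 0.63, and its other measured probe set gave 0.63. UQCR10 was at 0.46 and CYC1 at 0.43. The lowest were UQCRQ, with 2350.4 with the AK4 vector label and 2445 with the control vector (-0.057), and UQCRC1, with 907 with the AK4 vector label and 943 with the control vector (-0.055). The 2 core proteins thus had unlike ratios. Cytochrome c (CYCS), which carries electrons from complex III to complex IV, had 3562 with the AK4 vector label and 3943 with the control vector, a log2 ratio of -0.15.

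Complex IV had 13 measured genes in CL1-0, 10 of them above 0, or 76.9%, beside 56.1% of all genes. None reached 1.5-fold, beside 12.6% of all genes higher and 6.53% lower. COX7B was highest, with 2289 with the AK4 vector label and 1738 with the control vector (0.40), and COX4I1 followed with 2622 with the AK4 vector label and 2014 with the control vector (0.38). COX6A1 was lowest, with 4322 with the AK4 vector label and 4481 with the control vector (-0.052). COX7A2L, a paralogue known to join complexes III and IV into supercomplexes, had 2224 with the AK4 vector label and 2246 with the control vector (-0.014), and COX7A2 had 4054 with the AK4 vector label and 4082 with the control vector (-0.010). COX7C had 4662 with the AK4 vector label and 3659 with the control vector (0.35).

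The tissue-restricted forms of complex IV subunits gave little or no signal. COX4I2, known from lung and from hypoxia, had 6.95 with the AK4 vector label, just above the floor, and 6.39 with the control vector. It thus counted as measured and above 0, with a log2 ratio of 0.0026 against the floor. COX6A2, known from heart and skeletal muscle, had 4.68 with the AK4 vector label and 5.66 with the control vector, under it. COX6B2, known from testis, had 15.6 with the AK4 vector label and 13.5 with the control vector, a log2 ratio of 0.21, while its ubiquitous counterpart COX6B1 had 1511 with the AK4 vector label and 1286 with the control vector (0.23). COX5A and COX5B, which are different subunits, were at 0.24 and 0.28, and COX8A was at 0.15.

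Complex V held the largest ratio. ATP5IF1 encodes the inhibitor that stops ATP synthase from running backwards and hydrolysing ATP. Its signal was 446 on the array labelled AK4 vector, against 165 on the control vector array, which is 2.70-fold higher or 1.44 on the log2 scale. Its other probe sets pointed the same way, with 431 with the AK4 vector label and 120.2 with the control vector (1.84) for 1 and 37.5 with the AK4 vector label and 23.8 with the control vector (0.66) for the dim one. In CL1-5 ATP5IF1 had 349.9 with AK4 shRNA and 356 with the non-silencing shRNA, a log2 ratio of -0.025, and its other probe sets were at 0.20 and -0.23. On all 3 probe sets the lowest of the 4 arrays was the CL1-0 control vector array.

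**Figure D2:**
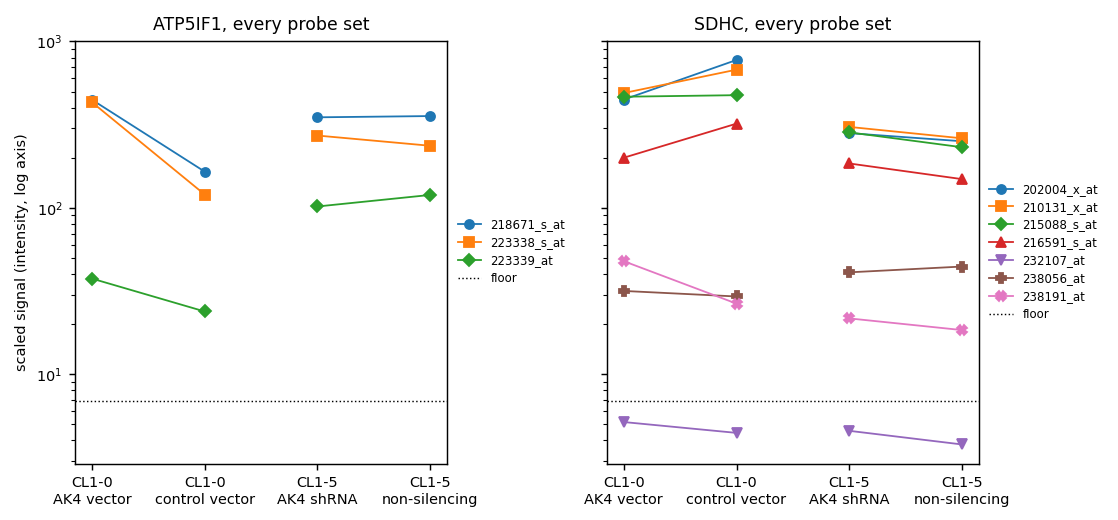
Scaled signal (y axis, log scale) of each probe set of ATP5IF1 (left) and SDHC (right) on the 4 arrays (x axis), where lines join the arrays of a cell line and the dotted line is the floor of 6.94. All 3 ATP5IF1 probe sets are lowest on the CL1-0 control vector array. The 4 bright SDHC probe sets are lower with the AK4 vector label, 1 of them barely (-0.031), and higher with AK4 shRNA. The dim SDHC probe sets do not share that direction in CL1-0.

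Within the enzyme itself, all 5 genes of the catalytic head and central stalk were above 0, beside 56.1% of all genes. They lay between 0.090 for ATP5F1B, the beta subunit, and 0.35 for ATP5F1A, the alpha subunit. The 3 genes of the c ring, the rotor through which protons pass, encode the same mature protein. They were at 0.053 (ATP5MC1), 0.17 (ATP5MC2) and 0.37 (ATP5MC3). The peripheral stalk, which holds the head still, was split. ATP5PB had 6721 with the AK4 vector label and 5212 with the control vector (0.37), and ATP5PO was at 0.43. Lower were ATP5PD, with 4056 with the AK4 vector label and 4645 with the control vector (-0.20), and ATP5PF, with 1433 with the AK4 vector label and 1872 with the control vector (-0.39). Among the small membrane subunits ATP5ME was highest, with 2368 with the AK4 vector label and 1601 with the control vector (0.56). Over all complexes, 22 members had more than 1 probe set to compare in CL1-0. Of these, 13 had all above 0, 1 (COX6A1) had all below 0 and 8 were mixed. The same count was not made over all genes, so it is not a result about the members.

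Other genes of the pathway were read from lists of assembly factors, mitochondrially encoded subunits and regulators of mitochondrial biogenesis. In CL1-0 all 4 mitochondrially encoded subunits were above 0, between 0.54 and 1.92, beside 56.1% of all genes. Of the 4, 3 reached a 1.5-fold higher signal, beside 12.6% of all genes. All 4 were read from probe sets with the suffix _x_at or _s_at, which can bind related transcripts. COX1, the catalytic core of complex IV, had 4025 with the AK4 vector label and 2619 with the control vector, COX2 had 13087 with the AK4 vector label and 8176 with the control vector, and COX3 had 468 with the AK4 vector label and 123 with the control vector. Of 17 measured regulators, 4 reached 1.5-fold in the higher direction, beside 12.6% of all genes, and 0 in the lower, beside 6.53%. They were PPARGC1B, a coactivator of mitochondrial genes (1.18), TFB1M, which modifies mitochondrial ribosomal RNA (0.93), POLRMT, the mitochondrial RNA polymerase (0.69), and POLG2, a subunit of the mitochondrial DNA polymerase (0.61).

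In CL1-0, 12.6% of all genes were at least 1.5-fold higher with the AK4 vector label and 6.53% lower. Of the assembly factors, 1 of 4 for complex II (SDHAF3, 0.90) was at least 1.5-fold higher. For complex III it was 1 of 9, or 11.1% (LYRM7, which handles the Rieske protein, 0.74), near the share of all genes. All 9 factors of complex III were above 0, beside 56.1% of all genes, with a median of 0.40. Of 29 factors of complex IV, 1 was higher and 1 lower, or 3.45% each, below the shares of all genes. PET117 was higher, with 378 with the AK4 vector label and 137 with the control vector (1.46). COA6, which helps deliver copper, was lower, with 623 with the AK4 vector label and 1021 with the control vector (-0.71). None of the 5 factors of complex V and none of the 5 genes of cytochrome c maturation and the apoptosome reached 1.5-fold. The 32 complex I subunits had a median of 0.30, and 54 cytosolic ribosomal proteins had 0.14.

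Promoters are shown for 5 members with some of the highest or lowest ratios of their complex, SDHD, ATP5IF1, ATP5PF, ATP5PD and ATP5MC2. Each window is 300 bases around the RefSeq gene start in build GRCh38.p14, given 5′ to 3′ along the gene. In the order of the genes, the windows are chr11:112086623-112086922 on the plus strand, chr1:28235874-28236173 on the plus strand, chr21:25735005-25735304 on the minus strand, chr17:75046920-75047219 on the minus strand and chr12:53676281-53676580 on the minus strand. ATP5PF has 2 windows in the RefSeq table and ATP5MC2 has 3. For both genes the window that holds the most of the motifs below was picked and is shown. Capitals mark matches on either strand to GCGCATGC (NRF1), CCGGAAG (the ETS motif, which GABPA binds), AAGATGGC (YY1) and CCAAT.
SDHD: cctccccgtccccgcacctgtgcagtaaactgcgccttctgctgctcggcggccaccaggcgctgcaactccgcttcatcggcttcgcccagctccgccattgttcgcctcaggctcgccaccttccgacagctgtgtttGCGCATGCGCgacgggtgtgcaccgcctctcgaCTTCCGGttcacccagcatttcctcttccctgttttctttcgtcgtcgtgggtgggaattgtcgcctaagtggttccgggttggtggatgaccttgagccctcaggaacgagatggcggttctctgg
ATP5IF1: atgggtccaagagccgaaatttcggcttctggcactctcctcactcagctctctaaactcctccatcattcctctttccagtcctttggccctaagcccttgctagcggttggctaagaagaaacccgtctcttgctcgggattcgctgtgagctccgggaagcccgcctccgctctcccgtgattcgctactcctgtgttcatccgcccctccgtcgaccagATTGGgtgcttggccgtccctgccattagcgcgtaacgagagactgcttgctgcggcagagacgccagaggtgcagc
ATP5PF: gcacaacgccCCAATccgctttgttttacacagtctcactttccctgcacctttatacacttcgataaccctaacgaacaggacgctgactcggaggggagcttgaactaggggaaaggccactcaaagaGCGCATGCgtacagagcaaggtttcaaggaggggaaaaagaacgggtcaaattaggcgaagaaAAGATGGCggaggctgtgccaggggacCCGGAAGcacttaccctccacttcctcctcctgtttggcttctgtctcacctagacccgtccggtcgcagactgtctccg
ATP5PD: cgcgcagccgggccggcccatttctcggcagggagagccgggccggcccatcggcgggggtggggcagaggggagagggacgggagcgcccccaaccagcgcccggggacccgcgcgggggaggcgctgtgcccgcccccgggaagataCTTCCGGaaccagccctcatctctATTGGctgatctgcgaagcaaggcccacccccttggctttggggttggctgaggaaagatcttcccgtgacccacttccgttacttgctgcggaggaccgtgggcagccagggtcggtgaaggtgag
ATP5MC2: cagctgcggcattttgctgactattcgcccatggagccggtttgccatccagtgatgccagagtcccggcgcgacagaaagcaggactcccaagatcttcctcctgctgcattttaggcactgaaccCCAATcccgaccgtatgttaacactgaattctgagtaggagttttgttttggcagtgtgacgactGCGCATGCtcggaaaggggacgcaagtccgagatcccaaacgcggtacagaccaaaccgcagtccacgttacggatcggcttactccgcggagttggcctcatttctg
The SDHD window holds the NRF1 and ETS letters, that of ATP5PD ETS and CCAAT, and that of ATP5IF1 only CCAAT. The picked window of ATP5PF holds all 4 motifs, and its other window only ETS and YY1. The picked window of ATP5MC2 holds NRF1 and CCAAT, and its other windows hold only NRF1 or only CCAAT of the marked motifs. The NRF1 letters can match both strands at overlapping positions, as in the SDHD window. A match describes the sequence and does not show binding.

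In all, 36 members had a window, with 42 windows between them. The NRF1 letters were in 9 of the 42, or 21.4%, against 3.05% of all 35116 RefSeq windows. The ETS letters were in 15, or 35.7%, against 10.3%, and those of YY1 in 5, or 11.9%, against 2.89%. CCAAT was in 19, or 45.2%, against 34.6%. TGACG, the core of the cyclic AMP response element, was in 10, or 23.8%, against 24.6%. Among the 22198 windows of protein-coding genes the shares were 3.74% (NRF1), 12.8% (ETS), 3.53% (YY1), 34.7% (CCAAT) and 27.9% (TGACG). A gene with several windows counts more than once.

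In CL1-5 the same genes differed little between AK4 shRNA and the non-silencing shRNA. Of 43 genes measured there, a 1.5-fold higher signal was reached by 0, beside 0.868% of all 15314 measured genes, and 0 were at least 1.5-fold lower, beside 0.542%. At 2-fold the count was 0 in both directions, beside 0.0914% higher and 0.0131% lower among all genes. The ratios lay between -0.34 and 0.23, with a median of -0.025 against -0.0014 for all genes. A log2 ratio above 0 was seen in 13 of 43, or 30.2%, beside 49.7% of all genes. That count depends on the scaling, since most ratios were close to 0. With arrays scaled to a common median it was 25, beside 61.3% of all genes, and the median was 0.024. With the trimmed mean scaling, 15.6% of complex I subunits and 26.4% of cytosolic ribosomal proteins were above 0. Among genes with a mean log2 level of at least 10, 8 of 25 members were above 0, beside 40.5% of 417 other genes. The medians there were -0.010 for the members and -0.023 for the other genes. Probe sets for the same gene scattered with a pooled SD of 0.22 in this comparison.

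In complex II, SDHA had 523 with AK4 shRNA and 607 with the non-silencing shRNA (-0.22), SDHC had 306 with AK4 shRNA and 262 with non-silencing shRNA (0.23) and SDHD had 549 with AK4 shRNA and 550.2 with non-silencing shRNA (-0.0034). In complex III 1 of 7 genes was above 0, beside 49.7% of all genes. None of the 7 ratios exceeded the pooled SD of 0.22 between probe sets. UQCR10 had 1388 with AK4 shRNA and 1616 with non-silencing shRNA (-0.22) and CYC1 had 1599.6 with AK4 shRNA and 1823 with non-silencing shRNA (-0.19), while UQCRC2 had 790.5 with AK4 shRNA and 786 with non-silencing shRNA (0.0075) and UQCR11 had 637 with AK4 shRNA and 676 with non-silencing shRNA (-0.086). CYCS was at 0.068.

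In complex IV the lowest ratio with AK4 shRNA was that of COX4I2, with 15.2 with AK4 shRNA and 19.3 with non-silencing shRNA (-0.34), close to the floor. COX8A had 1498 with AK4 shRNA and 1699 with non-silencing shRNA (-0.18). COX6B2 was highest, with 23.9 with AK4 shRNA and 21.4 with non-silencing shRNA (0.16), followed by COX6A1, with 1534 with AK4 shRNA and 1463 with non-silencing shRNA (0.068). In complex V the c ring genes ATP5MC1, with 337 with AK4 shRNA and 420.4 with non-silencing shRNA (-0.32), and ATP5MC2, with 584 with AK4 shRNA and 649 with non-silencing shRNA (-0.15), were lowest. ATP5PD had 1148 with AK4 shRNA and 1076 with non-silencing shRNA (0.093). ATP5ME was highest at 0.13, but its other probe set was at -0.19. The 5 head and central stalk genes lay between -0.078 and 0.034.

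No listed assembly factor or regulator reached 1.5-fold in CL1-5, beside 0.868% of all genes higher and 0.542% lower. All 4 mitochondrially encoded subunits were above 0 with AK4 shRNA, between 0.15 and 0.40, beside 49.7% of all genes. They were above 0 on the array labelled AK4 vector as well.

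Of 42 members measured in both lines, 24, or 57.1%, were above 0 on the array labelled AK4 vector and below 0 with AK4 shRNA, beside 25.8% of all 13735 genes. The count was 14 of 42, or 33.3%, beside 17.0% of all genes, with arrays scaled to a common median. Most of the CL1-5 ratios behind it were smaller than the scatter between probe sets. Most complex I subunits and cytosolic ribosomal proteins were also above 0 in CL1-0 and below 0 in CL1-5, but the pair of signs was not counted for them. The opposite pair of signs was seen in 5 members, or 11.9%, beside 20.3% of all genes. They were SDHC, CYCS, COX6A1, ATP5PD and ATP5MK, and SDHC had the largest ratios of these 5 in both lines.

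Between the control arrays, most genes of complexes III, IV and V were lower in CL1-5 with the non-silencing shRNA than in CL1-0 with the control vector. Above 0 were 2 of 3 genes of complex II, 2 of 7 of complex III, 4 of 14 of complex IV and 2 of 18 of complex V. Of 43 measured members, 21, or 48.8%, were at least 1.5-fold lower in CL1-5, beside 23.3% of all 15969 measured genes, and 7, or 16.3%, were at least 1.5-fold higher, beside 30.5%. At 2-fold, 16 were lower, or 37.2%, beside 14.2%, and 3 were higher, or 6.98%, beside 17.1%. Their median log2 ratio was -0.56, against 0.13 for all genes, and 10 of 43 lay above 0, or 23.3%, beside 56% of all genes. In the deposited values without scaling 9 members were at least 1.5-fold lower, beside 7.61% of all genes, and 15 higher, beside 61.0%. With a common median 32 were lower, beside 38.5%, and 4 higher, beside 16.2%. Under quantile normalization 15 were lower, beside 27.6%, and 7 higher, beside 22.4%. After a loess correction of the ratio for level 14 were lower, beside 24.7%, and 6 higher, beside 23.8%. The median was 0.27 without scaling, where that of all genes was 0.83, and 0.032 when probe sets with suffix _x_at or _s_at were dropped.

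Other bright genes were lower too. Among genes with a mean log2 level of at least 10, the 419 that are no members had a median of -0.58, and 49.9% of them were at least 1.5-fold lower in CL1-5. The 30 members at that level had a median of -0.85, with 17 at least 1.5-fold lower. At 2-fold, 13 of the 30 members were lower, beside 28.4% of the other bright genes. After a loess correction of the ratio for level, the members' median was -0.18. The 53 measured cytosolic ribosomal proteins had a median of -0.98. The beta-actin quotient also differed between these arrays, at 1.34 in CL1-5 and 6.04 in CL1-0, and that of GAPDH was 1.04 in CL1-5 and 1.25 in CL1-0. The part of signal level and RNA integrity in the line difference was not tested, and line, vector and array cannot be told apart.

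**Figure D3:**
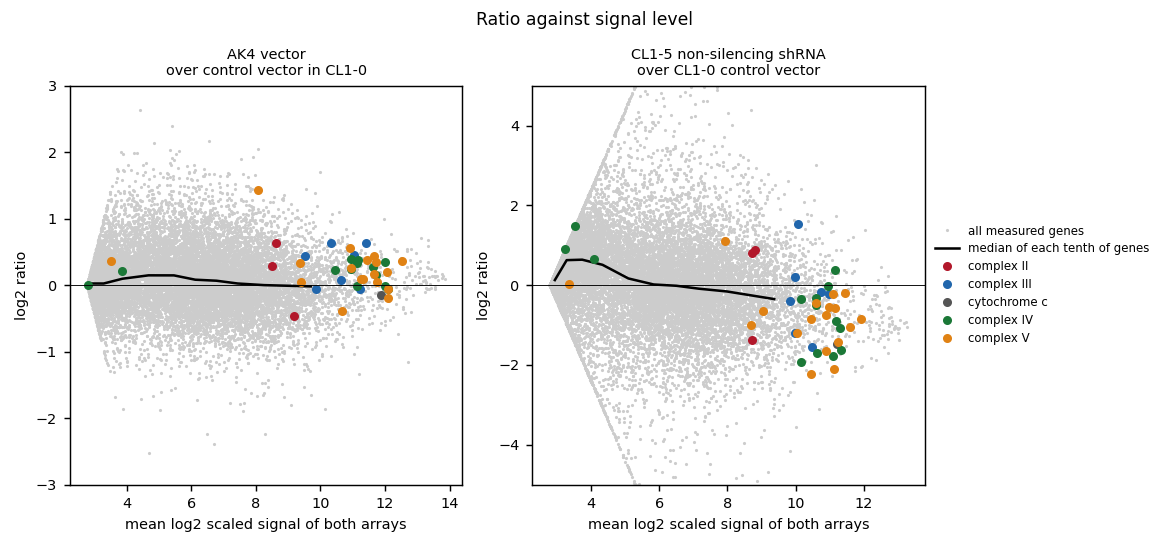
Log2 ratio (y axis) against the mean log2 scaled signal of both arrays (x axis) for all measured genes (grey), the members (coloured by complex) and the median in 10 equal bins of genes by level (black line), for the array labelled AK4 vector over the control vector in CL1-0 (left) and for CL1-5 over CL1-0 control arrays (right). The axes leave out 1 gene at left and 98 at right, and at right the black line is at -0.35 in the brightest bin, which holds 38 of the members.

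In complex V, 11 of 18 genes were at least 1.5-fold lower in CL1-5, beside 23.3% of all genes and 49.9% of the other bright genes. ATP5MC2 of the c ring had the lowest ratio of all members, with 649 in CL1-5 and 3029 in CL1-0 (-2.22), on its bright probe set, while its dim one was at 0.21. The other c ring genes were at -0.64 (ATP5MC1) and -0.55 (ATP5MC3). ATP5PD of the peripheral stalk had 1076 in CL1-5 and 4645 in CL1-0 (-2.11). Of the small membrane subunits, ATP5MJ had 1069 in CL1-5 and 3375 in CL1-0 (-1.66), ATP5ME had 703 in CL1-5 and 1601 in CL1-0 (-1.19) and ATP5MK had 2155 in CL1-5 and 4466 in CL1-0 (-1.05). ATP5MF, read from its dim probe set, had 10.25 in CL1-5 and 10.03 in CL1-0 (0.032), close to the floor. Its bright probe set, which also names ARMC2-AS1 and was not counted, had 1232 in CL1-5 and 3146 in CL1-0 (-1.35). Between the array labelled AK4 vector and the control vector array the dim one was at 0.37 and the bright one at -0.11.

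The head and central stalk of complex V were not alike in their line ratios. The alpha and beta subunits ATP5F1A and ATP5F1B were at -0.19 and -0.23. ATP5F1E and ATP5F1D of the central stalk were lower, with 1487 in CL1-5 and 4007 in CL1-0 (-1.43) and 294 in CL1-5 and 593 in CL1-0 (-1.01). The inhibitor ATP5IF1 was higher, with 356 in CL1-5 and 165 in CL1-0 (1.11). It was the only one of 24 members with several probe sets to compare whose probe sets all lay above 0. On the CL1-0 array labelled AK4 vector its signal was 446, above both CL1-5 arrays, but its dim probe set had 37.5 there, below the 102 with AK4 shRNA and 119.5 with non-silencing shRNA.

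In complex IV, 6 of 14 genes were at least 1.5-fold lower in CL1-5, a share between the 23.3% of all genes and the 49.9% of the other bright genes. COX7A2L had 592 in CL1-5 and 2246 in CL1-0 (-1.92), and its paralogue COX7A2 had 1183 in CL1-5 and 4082 in CL1-0 (-1.79). COX5B had 886 in CL1-5 and 2859 in CL1-0 (-1.69), with its 3 other probe sets between -0.93 and -1.53. COX6A1 had 1463 in CL1-5 and 4481 in CL1-0 (-1.61) and COX7C had 1747 in CL1-5 and 3659 in CL1-0 (-1.07). By contrast COX4I1 had 1983 in CL1-5 and 2014 in CL1-0 (-0.022) and COX6C had 2612 in CL1-5 and 2009.6 in CL1-0 (0.38). Against the floor in CL1-0, COX4I2 was at least 2.79-fold higher in CL1-5 and COX6A2 at least 1.87-fold higher, both from dim signals.

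Complexes II and III did not share 1 direction between the lines. CYC1 had 1823 in CL1-5 and 632 in CL1-0, a log2 ratio of 1.53, the highest among members above the floor on both arrays. SDHA had 607 in CL1-5 and 331 in CL1-0 (0.88) and SDHD had 550.2 in CL1-5 and 317 in CL1-0 (0.80), whereas SDHC had 262 in CL1-5 and 677 in CL1-0 (-1.37), with 1 of its dim probe sets at 0.60. UQCRQ had 833 in CL1-5 and 2445 in CL1-0 (-1.55), UQCR11 had 676 in CL1-5 and 1541 in CL1-0 (-1.19) and UQCRC1 had 1079 in CL1-5 and 943 in CL1-0 (0.19). CYCS had 1421 in CL1-5 and 3943 in CL1-0 (-1.47).

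For 12 of 24 members with several probe sets to compare, the probe sets disagreed in sign between the lines. UQCRC2 was at -0.40 on the probe set used and 0.72 on another. ATP5MC3 was at -0.55, and at 2.43 on a dim one. For 11 members all probe sets were below 0, among them COX5B, COX7C, ATP5ME, ATP5MJ and CYCS. Agreement between probe sets was not counted over all genes. The scatter between probe sets for the same gene had a pooled SD of 0.85 here.

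Among the other genes of the pathway, 14 of 29 complex IV assembly factors were at least 1.5-fold lower in CL1-5, beside 23.3% of all genes, and 2 were higher, beside 30.5%. COA6 had 189 in CL1-5 and 1021 in CL1-0 (-2.43), PET100 was at -1.84, LRPPRC, which stabilises mitochondrial messenger RNAs, was at -1.79, and COX14 was at -1.30. Complex III factors were split, with 4 of 9 higher and 3 lower. BCS1L, which inserts the Rieske protein, was at 1.25, and UQCC2 was at least 1.24 against the floor in CL1-0, whereas LYRM7 was at -1.21 and UQCC5 at -1.08. For complex V, ATPAF1 was at 1.41 and FMC1 at -1.59, and for complex II, SDHAF1 was at 0.62 and SDHAF4 at -1.57. XIAP, an inhibitor of caspases, was the 1 of 5 genes of cytochrome c maturation and the apoptosome past 1.5-fold, at -1.30.

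Of 17 regulators, 6 were at least 1.5-fold lower in CL1-5, beside 23.3% of all genes, and 2 were higher, beside 30.5%. The 2 higher ones were MYC (0.88) and TFAM (0.62), named here beyond the 4 largest ratios. The lowest were GABPB2 (-1.44) and GABPA (-1.39), subunits of 1 factor, YY1 (-1.04) and PPARGC1B (-0.93). The mitochondrially encoded COX1 had 6831 in CL1-5 and 2619 in CL1-0 (1.38). At least 1.5-fold lower were 0 of 4 such subunits, beside 23.3% of all genes.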

How the data were processed

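RNA of 4 cultures was read on Affymetrix HG-U133 Plus 2.0 arrays, 1 per group. The authors deposited linear intensities by probe set, and the submitters' processing notes name MAS5, without a version. With so few arrays, precision is limited by their number. Each array was scaled so that its trimmed mean (2% cut at both ends, 62 control probe sets excluded) matched the others. Signals under the 40th percentile of all scaled values were raised to it, and log2 was taken of these scaled values, not of the deposited ones. Of the probe sets, 41097 had 1 gene symbol and were used. For 99.9% of them the symbol was brought up to date by gene identifier. The probe set with the highest mean log2 level stood for its gene. Ratios were counted at 1.5-fold and 2-fold without a test. The procedure was tested on simulated data.

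The members and lists were chosen with earlier results of these data known. Values per array are given for the gene of highest mean level (a rule for choosing genes, not a comparison between them), the 2 highest and the 2 lowest ratios of each complex, for genes past 2-fold and for paralogues, some of them by ratio only. Listed pathway genes are named from 1.5-fold on, up to 4 per list. The level of 10 for bright genes was set after the data were seen. Alternatives changed scaling, floor, choice of probe set and membership. Promoter windows came from RefSeq. Python 3.11.15, numpy 2.4.6, pandas 2.3.3 and statsmodels 0.14.6 were used.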

Additional observations from a re-analysis of the deposited data

How the results depend on the processing

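No paired analysis was possible because each group is 1 array. The 2 alternatives on membership removed no measured gene and so test nothing. In CL1-0 the members' median minus that of all genes lay between 0.13 and 0.25 under the 8 other alternatives. At least 1.5-fold higher were 2 genes under quantile normalization, beside 9.94% of all genes, and 1 with a common median, beside 10.4%. When probe sets with suffix _x_at or _s_at were dropped, 6 were higher, beside 13.3%, and 3 lower, beside 6.19%. ATP5IF1 was at 0.66 with those dropped. In CL1-5 the members above 0 numbered 20 under quantile normalization, 25 with a common median (median 0.024) and 22 as deposited. The shares of all genes were 52.0%, 61.3% and 51.3% in the same order.

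Between the lines, the deposited values without scaling put all genes at a median of 0.83 and the members at 0.27. Of the members 27 were above 0, 15 at least 1.5-fold higher and 9 lower. Of all genes 83.7% were above 0, 61.0% at least 1.5-fold higher and 7.61% lower. ATP5MC1 was then at 0.23, ATP5MG at 0.13, ATP5PB at 0.024 and ATP5PF at 0.0227. A common median put all genes at -0.30, with 4 members higher and 32 lower, beside 16.2% and 38.5% of all genes. With the suffixed probe sets dropped the members' median was 0.032, with 19 above 0, 13 higher and 11 lower. Of all genes 57.4% were then above 0, 30.9% higher and 22.3% lower. In that reading ATP5MC2 was at 0.21, ATP5MG at 0.85, ATP5PB at 0.67 and SDHC at 0.60. Above 0 were 17 after loess, beside 52.5% of all genes, and 16 when probe sets were averaged, beside 61.9%. Under the stricter floor 4 were higher, beside 26.1%. The members' median minus that of all genes stayed between -0.75 and -0.12. The causes were not tested.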
